A study of Mus musculus with 14 samples.

Results

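The 10 genes followed here encode regional transcription factors of the developing brain, namely Pax2, Pax3, Pax5, Pax6, Pax7, Pax8, En1, En2, Gbx2 and Lmx1b. They were chosen by symbol, and all 10 had a row among the 17927 genes in the deposited table of read counts. The counts came from RNA-seq of 14 mouse brains taken on postnatal day 2 (P2), 7 from WT mice and 7 from Capn15 knockouts (KO), all untreated, from 6 litters of both sexes. Capn15 encodes calpain-15, an intracellular cysteine protease, and the study's mouse lines were made with C57BL/6J mice. Which Capn15 allele these knockouts carry is not given in the sources used here. The study asked which transcripts and proteins change when Capn15 is lost. Column names gave litter (A to F) and sex, and each KO brain shared its replicate number and litter with 1 WT brain. Litter B held 2 such pairs, matched only by their numbers, so counts over pairs can depend on that numbering.

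Pax proteins bind DNA through a paired domain, and in the early neural tube they, the engrailed proteins, Gbx2 and Lmx1b mark out territories along and across the axis. Pax2, Pax5 and Pax8 form 1 subfamily and act with En1, En2, Gbx2 and Lmx1b around the midbrain-hindbrain boundary, whose organizer releases Fgf8 and Wnt1. Pax3 and Pax7 are a dorsal pair, with Pax7 kept on in the tectum, while Pax6 marks the cortex, the eye field and the granule cells of the cerebellum. By birth each gene is left in restricted sets of neurons and progenitors. In a whole brain, fewer cells of such a set and less RNA per cell cannot be told apart.

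The Pax2, Pax5 and Pax8 subfamily is shown first by its sequence, since its members are paralogs. RefSeq (GRCm38.p6) gave promoter windows for 8 of the 10 genes, 11 windows in all, and none for Pax3 and En2. The 250 bases before the start are printed 5′ to 3′ on the gene's strand for Pax5 (chr4:44710695-44710944, minus strand), Pax8 (chr2:24475600-24475849, minus strand) and the second of 3 Pax2 windows (chr19:44755502-44755751, plus strand). Capitals mark GGGCGG, the GC box, and CCAAT, on either strand.
Pax5: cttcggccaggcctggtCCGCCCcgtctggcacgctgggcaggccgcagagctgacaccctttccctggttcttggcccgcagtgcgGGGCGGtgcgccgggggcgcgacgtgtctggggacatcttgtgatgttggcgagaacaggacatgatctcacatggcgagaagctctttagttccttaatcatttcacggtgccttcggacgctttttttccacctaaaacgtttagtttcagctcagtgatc
Pax8: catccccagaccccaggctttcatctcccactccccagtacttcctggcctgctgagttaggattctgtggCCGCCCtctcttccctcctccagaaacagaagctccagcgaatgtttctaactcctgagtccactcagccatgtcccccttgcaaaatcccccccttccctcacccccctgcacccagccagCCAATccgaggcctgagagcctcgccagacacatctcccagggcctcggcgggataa
Pax2: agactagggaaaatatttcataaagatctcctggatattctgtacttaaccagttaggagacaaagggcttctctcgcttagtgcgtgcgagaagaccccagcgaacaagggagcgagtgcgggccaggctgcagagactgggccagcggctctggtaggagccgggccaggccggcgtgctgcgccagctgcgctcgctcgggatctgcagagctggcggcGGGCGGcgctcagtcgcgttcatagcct
The Pax5 window held 19 CpG dinucleotides, the printed Pax2 window 20 and the other Pax2 windows 5 and 25, against 6 in the Pax8 window and a median of 6 over 32851 mouse windows. GGGCGG lay in 6 of the 11 windows and in 32.7% of all windows, and CCAAT in 4 of 11 and in 33.8%. Neither TATAAA (12.4% of all windows), TAATTA (4.84%), the core read by many homeodomains, nor GTCACGC (1.78%), part of a paired-domain site, was found in any of the 11 windows. These matches describe letters in the windows and no binding was measured.

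Library totals ran from 37620954 to 70910163 counts, and the 10 genes had between 24 and 2196 counts a brain. Capn15, read first as a check of the labels, was at 25.0 to 27.3 counts-per-million (CPM) in WT 1 to WT 6 and 12.2 to 14.5 CPM in KO 1 to KO 6, but 18.7 CPM in the library labelled WT 7 and 20.2 CPM in the library labelled KO 7, both of litter F. Results of the 10 genes that rest on genotype are therefore also given without litter F. The labels name neurons as the cell type, yet every library also held astrocyte and radial glia markers (5 of 5 genes, summed 1257 to 1780 CPM), oligodendrocyte lineage markers (254 to 395 CPM), and markers of microglia and endothelium. Skeletal muscle, where Pax3 and Pax7 mark progenitors, left little trace: Myod1, Myog, Myf5 and Myf6 had no row in the counts, and the 5 muscle genes that did summed to 9.54 to 12.7 CPM.

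Levels differed widely among the 10 genes. Per kilobase of merged exon, Pax6 was highest at 2.63 ± 0.19 CPM per kb (SD, n = 14), ahead of En2 at 2.34 ± 0.21, Gbx2 at 2.22 ± 0.38 and En1 at 1.66 ± 0.261 CPM per kb. A second tier held Pax3 at 0.808 ± 0.0946, Lmx1b at 0.746 ± 0.192, Pax7 at 0.743 ± 0.142 and Pax5 at 0.668 ± 0.163 CPM per kb. Pax8 (0.371 ± 0.108) and Pax2 (0.152 ± 0.0351 CPM per kb) were lowest. Pax6 exceeded En2, Gbx2 exceeded En1, En1 exceeded Pax3, Pax5 exceeded Pax8 and Pax8 exceeded Pax2 in 14 of 14 libraries. The other neighbours in this order changed places: En2 was above Gbx2 in 9 of 14 libraries, Pax3 above Lmx1b in 10, Lmx1b above Pax7 in 8 and Pax7 above Pax5 in 9, so those steps were within the spread between brains. The tier breaks between En1 and Pax3, Pax5 and Pax8, and Pax8 and Pax2 were wider than the SD of both genes together.

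Spread between brains also differed, and it did not follow the depth of counting alone. The coefficient of variation of CPM over the 14 brains was 29.2% for Pax8, 25.7% for Lmx1b, 24.4% for Pax5 and 19.1% for Pax7, against 10.2%, 7.88%, 6.22% and 7.16% from counting alone. Pax6 varied by 7.22% and En2 by 8.97%. For Pax2, at 24 to 65 counts a brain, 23.1% stood beside 16.6% from counting, so its differences between single brains were the least well measured.

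**Figure D1:**
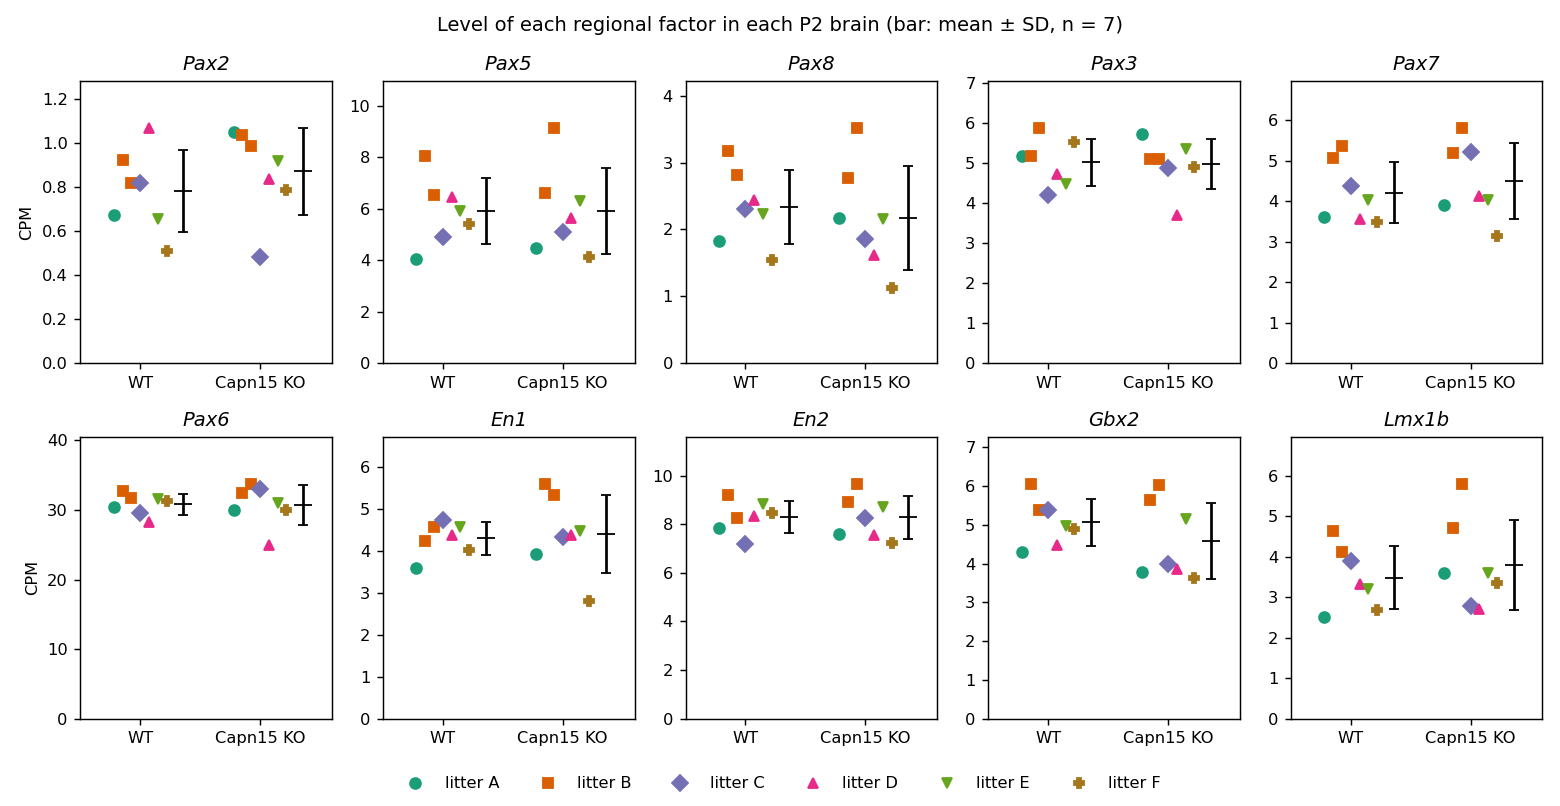
CPM (y axis from 0) of each of the 10 genes in the 7 WT and 7 Capn15 KO brains, with a marker for each litter and bars for mean ± SD. WT and KO ranges overlap for all 10 genes, and the 4 brains of litter B (squares) lie above all others for Pax5, Pax8 and Lmx1b.

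Loss of Capn15 was not followed by a called change in any of the 10 genes. In the edgeR quasi-likelihood test with litter and sex as terms, 0 of 10 had an adjusted p under 0.05, where 0.00558% of all genes did (1 of 17927). The 1 gene called was not Capn15. With litter F included, Capn15 itself missed the threshold (log2 fold change -0.81, adjusted p = 0.0747 in the same test). At an unadjusted p under 0.05 there were 2 of 10, Gbx2 and Pax8, both lower in KO, against 5.14% of all genes in either direction and 2.26% lower in KO. The edgeR likelihood ratio test (0.19% of all genes called), DESeq2 (0.123%) and limma-voom (0.00558%) also called 0 of the 10, as did the quasi-likelihood test without litter F (0.039%). In 0 of the 10 were WT and KO ranges apart, beside 0.00558% of all genes. The median log2 fold change of the 10, KO minus WT, was -0.019, beside 0.0015 over all genes.

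Among the subfamily at the boundary, Pax2 ran from 0.507 through a median of 0.815 to 1.07 CPM in WT brains and from 0.483 through 0.916 to 1.05 CPM in KO brains. The ranges lay almost on top of each other, KO 4 being lowest and WT 5 highest. Its log2 fold change was 0.03 (95% interval -0.32 to 0.38), an interval of 0.803-fold to 1.30-fold. Pax5 spanned 4.06, 5.90 and 8.06 CPM (lowest, median, highest) in WT and 4.14, 5.65 and 9.14 CPM in KO, and the top of both groups came from litter B. Its difference was -0.04 on the log2 scale (95% interval -0.24 to 0.15). Pax8 spanned 1.54, 2.30 and 3.17 CPM in WT and 1.13, 2.16 and 3.52 CPM in KO. The KO brains held both extremes of Pax8, the lowest in KO 7 and the highest in KO 3. Its fitted log2 fold change was -0.22 (SE 0.102, adjusted p = 0.959 in edgeR's quasi-likelihood test, lower in the KO brain in 5 of 7 pairs). Without litter F it was -0.19 (95% interval -0.43 to 0.043).

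Gbx2, a homeodomain factor of the anterior hindbrain side of the boundary and later of the thalamus, had the lowest unadjusted p. WT brains held 4.29, 4.96 and 6.06 CPM and KO brains 3.64, 3.98 and 6.02 CPM (lowest, median, highest). The KO brains of litters A, C, D and F lay below every WT brain, while the KO brains of litters B and E lay inside the WT range. The fitted log2 fold change was -0.21 (SE 0.0698, 95% interval -0.36 to -0.059), with an unadjusted p of 0.00970 and an adjusted p of 0.762 in edgeR's quasi-likelihood test. Gbx2 was lower in the KO brain in 5 of 7 pairs, and neither the exact permutation test over all regroupings of the libraries (two-sided p = 0.230) nor the exact sign-flip test over pairs (two-sided p = 0.109) passed. The smallest p they could give was 0.000583 and 0.0156. Neither exact test adjusts for sex, the permutation test also takes no account of litter, and both include litter F. Without litter F the value was -0.17 (95% interval -0.33 to -0.01, unadjusted p = 0.0389 in edgeR). Exons of Gbx2 overlap those of D130058E05Rik on the other strand, and those of Pax5 overlap Gm12462, both of which had rows in the counts. The library kit keeps strand, but the strand setting of the counting was not given in the sources used here, so reads shared with those genes leave both values uncertain, as does Gm13415 opposite Pax8.

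The engrailed genes, homeobox repressors of the midbrain and anterior hindbrain, did not pass the test for genotype. En1 ran over 3.60, 4.38 and 4.75 CPM in WT and 2.80, 4.38 and 5.61 CPM in KO, the KO brains reaching further at both ends. En2 ran over 7.19, 8.34 and 9.21 CPM in WT and 7.25, 8.27 and 9.68 CPM in KO. The intervals of the log2 fold change were -0.21 to 0.16 for En1 and -0.15 to 0.12 for En2. Lmx1b, a LIM homeodomain factor of the boundary and of dopamine and serotonin neurons, had 2.51, 3.33 and 4.64 CPM in WT and 2.71, 3.59 and 5.81 CPM in KO, with an interval of -0.19 to 0.20.

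Among the other Pax genes, Pax6 was the most tightly measured. It ran over 28.3, 31.3 and 32.8 CPM in WT and 25.0, 31.0 and 33.8 CPM in KO, and its 95% interval was -0.097 to 0.073 on the log2 scale. Only KO 5 lay well below the rest, at 25.0 CPM. Pax3 had 4.20, 5.17 and 5.88 CPM in WT and 3.72, 5.11 and 5.72 CPM in KO, again with KO 5 lowest (95% interval -0.21 to 0.14). Pax7 had 3.48, 4.02 and 5.36 CPM in WT and 3.14, 4.13 and 5.81 CPM in KO. Pax7 was higher in the KO brain in 6 of 7 pairs, by a fitted 0.11 (95% interval -0.04 to 0.25), and did not pass the test. The remaining pair was that of litter F, at 3.48 CPM in WT 7 and 3.14 CPM in KO 7. Without litter F the fitted value for Pax7 was 0.15 (95% interval -0.0059 to 0.30, unadjusted p = 0.0583 in edgeR's quasi-likelihood test). Only Gbx2, Pax8 and Pax7 kept the sign of their difference in every alternative run. Fitted differences for the other 7 genes changed sign in at least 1.

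**Figure D2:**
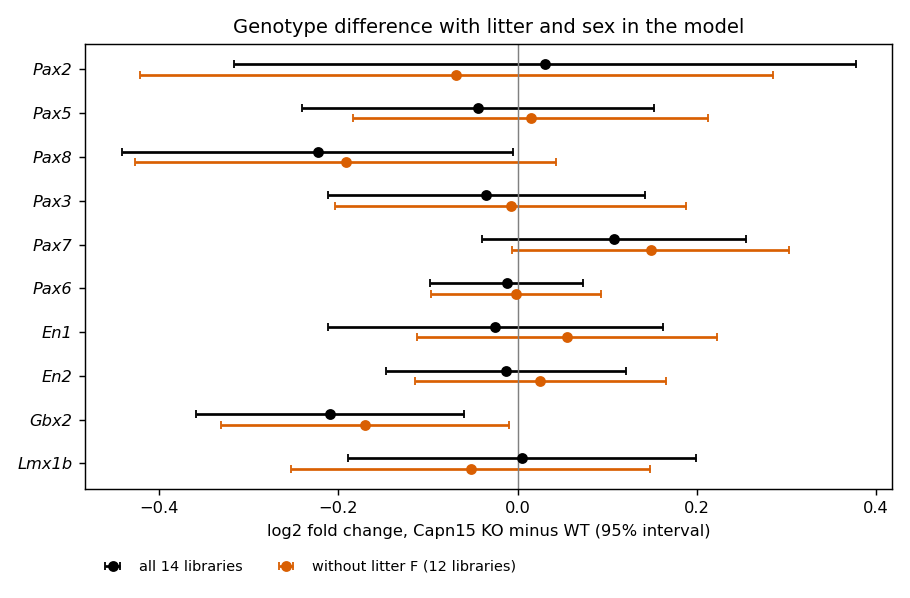
Fitted log2 fold change of each gene, Capn15 KO minus WT (x axis, log2 units), with 95% intervals, for all 14 libraries (black) and for 12 libraries without litter F (orange). Gbx2 at -0.21 and Pax8 at -0.22 lie farthest from 0, and no gene passed the adjusted test.

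Measured genes listed for the boundary organizer and its FGF response were not called for genotype either. Fgf8 and Wnt1 had no row in the counts, so the state of the organizer itself could not be read from these whole brains. Of 12 measured genes of the organizer and its FGF response, 0 had an adjusted p under 0.05, and the median log2 fold change was 0.017. At an unadjusted p under 0.05, 1 was higher and 2 were lower in KO, beside 5.14% of all genes in either direction. The FGF-induced Etv5 was at 47.6 ± 1.88 CPM in WT and 49.6 ± 1.15 in KO (SD, n = 7 each), and the FGF feedback phosphatase Dusp6 at 42.9 ± 4.62 and 42.7 ± 5.11 CPM. The 3 with a low unadjusted p, named after their values were seen, were Otx2 (log2 fold change -0.13), the forebrain and midbrain partner that Gbx2 opposes, Cnpy1 (-0.14) and Spry4 (0.11). Of 11 Eya, Dach and sine oculis homolog genes, partners of Pax proteins, 0 were called in the same test, and at an unadjusted p under 0.05 there was 1, Dach2 (-0.09). Of the related genes Pax1, Pax4, Pax9, Gbx1 and Lmx1a, only Gbx1 (3.56 ± 0.962 CPM in WT, 3.39 ± 0.958 in KO) and Lmx1a (6.18 ± 0.898 and 5.72 ± 1.21 CPM) had a row. No choroid plexus marker was called, and 6 of 7 were lower in KO at an unadjusted p under 0.05, beside 2.26% of all genes. The 7 summed to 743 to 981 CPM in WT and 607 to 850 CPM in KO. At the same threshold 3 of 13 Hox genes were lower. For the forebrain markers 6 of 10 were higher, beside 516 of 17927 genes, and again none of either list was called. These lists were fitted with litter F included. The part of these markers in the Gbx2 and Pax8 values was not tested.

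Differences between litters were called for most of these genes. In the F test of the litter terms (edgeR quasi-likelihood), 6 of 10 had an adjusted p under 0.05, where 29.6% of all genes did. They were Pax7 (adjusted p = 0.00183), Pax8 (0.00337), Pax5 (0.00561), Lmx1b (0.00602), Gbx2 (0.0121) and Pax6 (0.0390). For Pax2, Pax3, En1 and En2 the adjusted p ran from 0.143 to 0.449. Litter B had the highest mean of the 6 litters for 8 of the 10 genes, all but Pax2 (litter D) and Pax3 (litter A), beside 31.1% of all genes.

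All 4 brains of litter B, of both genotypes and both sexes, lay above the other 10 for Pax5, Pax8 and Lmx1b, 3 of 10 factors beside 7.45% of all genes. Pax5 ran from 6.52 to 9.14 CPM in litter B and from 4.06 to 6.46 CPM elsewhere. For Pax8 the ranges were 2.78 to 3.52 and 1.13 to 2.44 CPM, and for Lmx1b 4.13 to 5.81 and 2.51 to 3.91 CPM. Gbx2 came close, at 5.39 to 6.06 CPM in litter B and up to 5.39 CPM elsewhere, with 1 litter C brain above the lowest of litter B. Litter means of Pax8 spanned 2.31-fold, from 1.33 CPM in litter F to 3.07 CPM in litter B, and those of En2 1.17-fold. Without litter B the same test called 0 of the 10 and 196 genes in all. Several lists moved with litter B too, some up and some down. Genes of the boundary organizer and its FGF response summed lower there, to 245 to 257 CPM against 258 to 272 CPM elsewhere. Pax cofactors summed higher (856 to 914 and 747 to 842 CPM), as did the Eya, Dach and sine oculis homolog genes (110 to 115 and 97.6 to 108 CPM). Gbx1 and Lmx1a together were also higher (11.1 to 12.3 and 6.99 to 9.98 CPM). Microglia markers were lower (77.1 to 91.0 and 92.9 to 108 CPM). Oligodendrocyte lineage markers summed to 254 to 284 CPM in litter B and 290 to 395 CPM elsewhere, astrocyte and radial glia markers to 1257 to 1468 and 1494 to 1780 CPM, and tectum and pretectum neuron markers to 53.7 to 56.4 and 38.1 to 49.99 CPM. The part of these shifts in the litter result was not tested.

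Between brains most of the boundary genes rose and fell together. With each genotype's own mean taken out, 43 of the 45 pairs among the 10 genes had a positive Pearson's r of log2 CPM, and 22 had an adjusted p under 0.05 over the 45 (permutation test, 100000 permutations), all of them positive. Among Pax5, Pax7, Pax8, En1, En2, Gbx2 and Lmx1b, a grouping made after the values were seen, r ran from 0.54 to 0.84 and 18 of 21 pairs were called. Among the 24 pairs that involve Pax2, Pax3 or Pax6 it ran from -0.17 to 0.65 and 4 were called. Littermates are not fully independent and litter B stood apart for 3 of the genes, so each pair was also taken over the 10 brains of the other litters. There 0 of 45 pairs were called, the median r was 0.22 in place of 0.58, and 34 of 45 were positive.

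Pax5 and En2, the boundary pair with the highest value, gave r = 0.84 (Spearman's rho 0.79, adjusted permutation p = 0.00304 and 0.0103), 0.81 without the 2 brains farthest in Pax5, 0.67 without litter B and 0.81 in the residuals of litter and sex. Pax5 and its paralog Pax8 gave r = 0.80 (rho 0.80, adjusted permutation p = 0.00399 and 0.0103), 0.73 without the 2 farthest, 0.48 without litter B and 0.92 in the residuals. Pax2 and Pax8 gave r = 0.58 (rho 0.74, adjusted permutation p = 0.0629 and 0.0184), 0.46 without litter B and -0.39 in the residuals. Pax8 and Lmx1b reached 0.83 (rho 0.89, adjusted permutation p = 0.00304 and 0.00360) and 0.92 without KO 7 and KO 3, the 2 brains farthest in Pax8, but 0.48 without litter B and 0.26 in the residuals. With Gbx2 and Lmx1b r was 0.83 (rho 0.77, adjusted permutation p = 0.00304 and 0.0146), 0.71 without the 2 farthest, 0.47 without litter B and -0.22 in the residuals. Pax7 and En1 changed least among these, at 0.75 over all brains (rho 0.66, adjusted permutation p = 0.00508 and 0.0325), 0.73 without the 2 farthest, 0.78 without litter B (adjusted permutation p = 0.250) and 0.71 in the residuals. Pax3 and Pax6 gave r = 0.64 (rho 0.41, adjusted permutation p = 0.0400 and 0.221) and 0.097 without KO 5 and WT 4, the 2 brains farthest in Pax3. With each brain left out in turn it ran from 0.20 to 0.72, so its size depended on single brains. In a litter of 2 brains the residuals mirror each other. Values of r in the residuals, here and below, therefore rest on fewer independent points than the 14 brains.

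Many other genes followed the same axis. An r of at least 0.7 with Pax5 was reached by 5 of the 9 other factors and by 10.2% of 15226 genes with a mean of at least 1 CPM. With Pax8 it was 5 of 9 beside 12.3%, with Gbx2 6 of 9 beside 12.3%, with Lmx1b 3 of 9 beside 10.9%, with Pax7 3 of 9 beside 14.8%, with En1 4 of 9 beside 3.72% and with En2 2 of 9 beside 5.9%. For Pax2 (0.729% of genes), Pax3 (0.25%) and Pax6 (3.99%) it was 0 of 9.

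**Figure D3:**
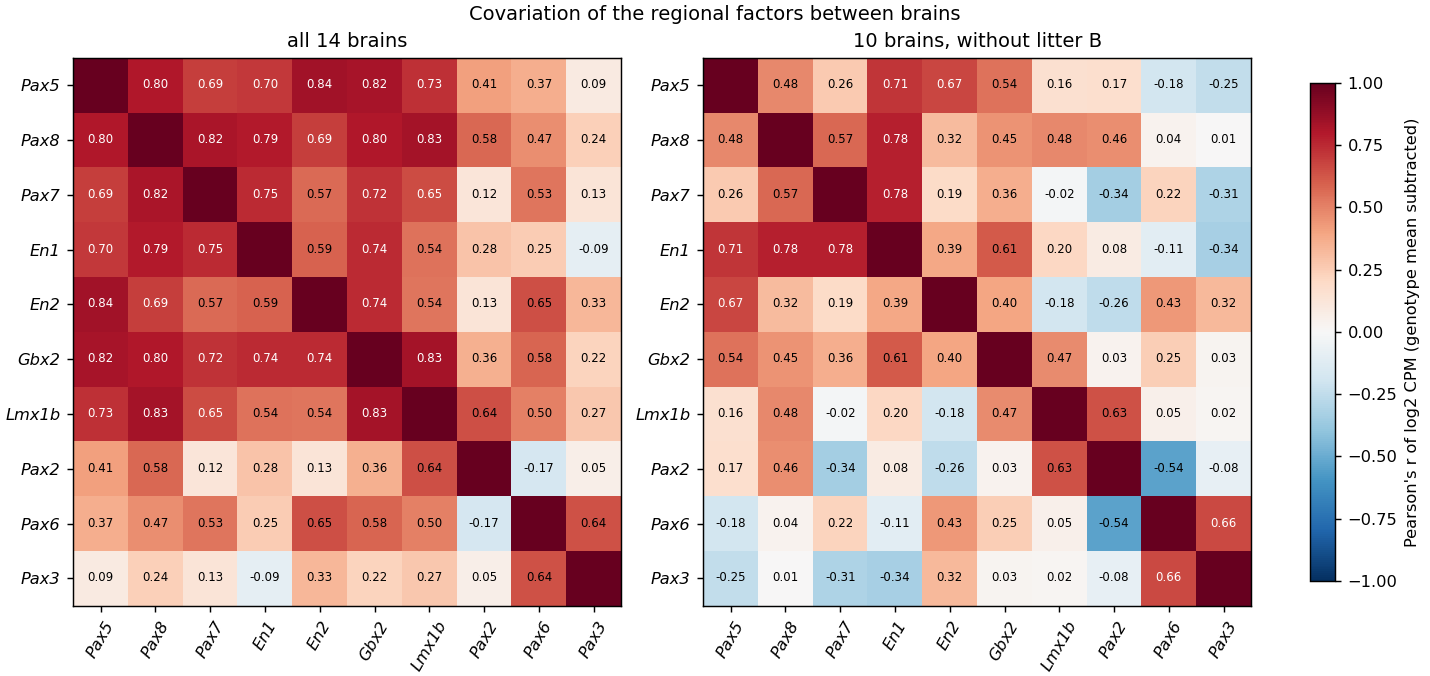
Pearson's r of log2 CPM between each pair of the 10 genes, genotype means subtracted, over all 14 brains (left) and over the 10 brains outside litter B (right), on a scale from -1 (blue) to 1 (red). The block from Pax5 to Lmx1b runs from 0.54 to 0.84 on the left, where 22 of 45 pairs were called, and 0 of 45 were called on the right.

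Regional marker lists moved with the factors in different ways. Each factor was set against the mean log2 CPM of 7 lists, 70 relations in all, of which 26 had an adjusted permutation p under 0.05 over all brains and 0 over the 10 brains outside litter B. The tectum and pretectum list (Tal1, Tfap2d, Pou4f1, Pou4f2 and 4 others), neurons of the dorsal midbrain, gave the highest r, with Gbx2 at 0.88 (rho 0.91, adjusted permutation p = 0.00140 and 0.000700), with Pax5 at 0.88 (rho 0.87, adjusted permutation p = 0.00140 and 0.00373) and with Lmx1b at 0.84. Without the 2 farthest brains these were 0.78, 0.78 and 0.74. Outside litter B they were 0.71, 0.83 and 0.37, and in the residuals of litter and sex 0.28, 0.33 and -0.034. The tectum and pretectum list was also called with Pax8 (r = 0.82), Pax7 (0.78), En1 (0.74) and En2 (0.74). In that order these were 0.46, 0.28, 0.71 and 0.55 outside litter B, and 0.41, 0.82, 0.75 and 0.20 in the residuals. Pax7 gave r = 0.87 with the forebrain list (rho 0.93), 0.76 outside litter B and -0.23 in the residuals. The forebrain list was also called with Pax5 (r = 0.75), Gbx2 (0.75), Pax8 (0.74), Lmx1b (0.67) and En1 (0.63), so the relation was not particular to Pax7. Pax6, which marks granule cells, gave 0.76 with the cerebellar granule list (rho 0.63), 0.70 outside litter B and 0.69 in the residuals. That was not particular to Pax6, since Gbx2 gave 0.81 and En2 0.71 with the same list (0.63 and 0.95 in the residuals). Lmx1b gave 0.42 with the dopamine neuron list and 0.39 with the serotonin neuron list, neither of them called.

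Pax2 had its highest values with the lists of the hindbrain and cord. It gave r = 0.86 with 13 Hox genes of the hindbrain and cord (rho 0.71, adjusted permutation p = 0.00330 and 0.0213) and r = 0.83 with the dorsal hindbrain and cord neuron list (rho 0.80, adjusted permutation p = 0.00330 and 0.0104). Outside litter B they were 0.84 and 0.85, and both missed the threshold there (adjusted permutation p = 0.0555 for each). Leaving out KO 4 and WT 7, the 2 brains farthest in Pax2, brought them to 0.49 (permutation p = 0.107, unadjusted) and 0.66 (permutation p = 0.0212, unadjusted). Dropping the extremes of Pax2 also narrows its range, which lowers r. With each brain left out in turn, r with the Hox list ran from 0.72 to 0.94. How far that relation rested on those 2 brains was not tested. The Hox genes summed to 8.89 CPM in KO 4 and 21.9 CPM in WT 7, against 26.4 to 54.7 CPM in the other 12 brains, and Pax2 was at 0.483 and 0.507 CPM in the same pair against 0.653 to 1.07 CPM elsewhere. Lmx1b also moved with these lists, with r = 0.69 to the Hox list (rho 0.83) and 0.73 to the dorsal list (rho 0.77), or 0.65 and 0.86 outside litter B. Pax8 gave 0.63 with the dorsal list (rho 0.75) and 0.53 with the Hox list (rho 0.76), which turned to -0.42 and -0.48 in the residuals, where Pax2 gave 0.79 and 0.73. Gbx2 gave 0.51 with the Hox list (rho 0.63). The differences between factors in these relations were not tested. Pax2 and Lmx1b gave r = 0.64 with each other (rho 0.67, adjusted permutation p = 0.0288 and 0.0279), 0.54 without KO 4 and WT 7 and 0.63 outside litter B.

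**Figure D4:**
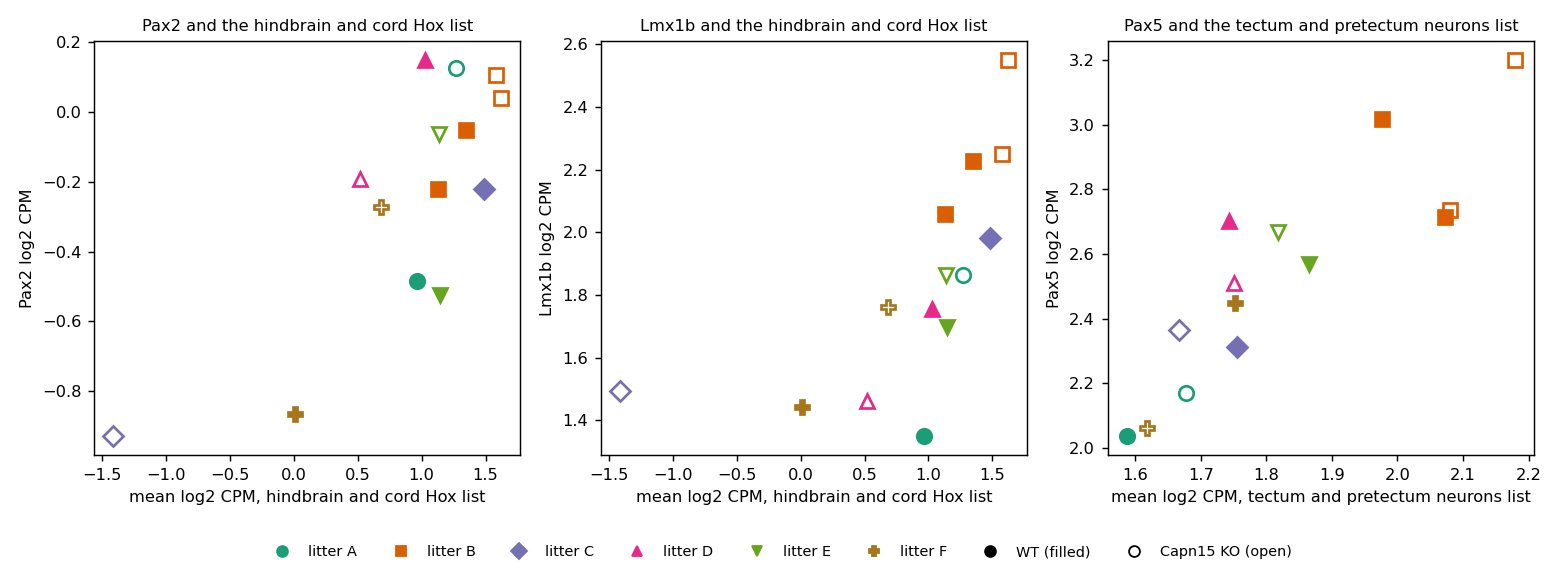
Log2 CPM of Pax2 and Lmx1b against the mean log2 CPM of the hindbrain and cord Hox list, and of Pax5 against the tectum and pretectum neuron list, 1 point for each of 14 brains (filled WT, open Capn15 KO, marker by litter). KO 4 (open diamond) and WT 7 (filled plus) lie lowest on the Hox list at -1.41 and 0.01, and the 4 litter B brains lie highest on the tectum list.

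The genes most like each factor over the 14 brains differed as well. For Pax2 they were Morn2 (r = 0.93), Hint2 (0.91) and Hoxd3 (0.86), the last a Hox gene outside the list. For Pax5 they were Ankrd6, Pcdh8 and Trmt6 (all 0.94), and for Pax8 the neuronal transcription factor Ebf3 (0.95), Elp6 (0.95) and Zfp28 (0.94). Lmx1b was followed most closely by Mpg (0.97), Anapc15 (0.95) and Mab21l2 (0.95), Gbx2 by Sugp1 (0.95), the water channel gene Aqp1 (0.94) and the FGF receptor gene Fgfr1 (0.94), and Pax7 by Taf5 (0.96), Sirt1 (0.96) and Rps15a (0.95). En1 went with Hdac6 (0.90), the neurotensin gene Nts (0.90) and Exosc2 (0.89), and En2 with Ddx21, Nck2 and Plat (all 0.92). Pax6 went with Otud7b (0.93), Rbm47 (0.92) and Nhlh2 (0.91), and Pax3 with 9330160F10Rik, Tex9 and Gm13192 (all 0.79). These values are a description, chosen as the highest among 15227 genes with a mean of at least 1 CPM.

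Sex was tested in the same model. None of the 10 had an adjusted p under 0.05 for sex in edgeR's quasi-likelihood test, where 0.0669% of all genes did. At an unadjusted p under 0.05 there were 4, beside 5.04% of all genes, and all 4 were higher in females, beside 2.41%. Male minus female the log2 differences were -0.42 for Pax2 (SE 0.172), -0.32 for Lmx1b (SE 0.0966), -0.28 for Pax8 (SE 0.108) and -0.17 for Gbx2 (SE 0.075), each with an adjusted p of 0.927.

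Pax2 was at 0.816 to 1.07 CPM in the 6 female brains and 0.483 to 0.923 CPM in the 8 male brains, so the ranges overlapped. It was higher in the female brain in 6 of 6 pairs of opposite sex, a property of 1.46% of all genes, by a mean of 0.42 on the log2 scale. The exact permutation test of 6 against 8 gave a two-sided p of 0.00633, unadjusted, and the exact sign-flip test 0.0313, the smallest it can give with 6 pairs. Lmx1b was also higher in the female brain in 6 of 6 pairs, at 3.33 to 5.81 CPM against 2.51 to 4.64 CPM, with an exact permutation p of 0.0556. For Pax8 and Gbx2 it was 4 of 6 pairs, and their exact permutation p was 0.105 and 0.326. Sex and genotype were unevenly spread, with 2 female WT and 4 female KO brains. Of 13 Hox genes, 12 had an unadjusted p under 0.05 for sex and all of those were higher in females, with 0 called, and their part in the Pax2 and Lmx1b values was not tested. KO 4 and WT 7, low in both Pax2 and the Hox genes, were male.

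**Figure D5:**
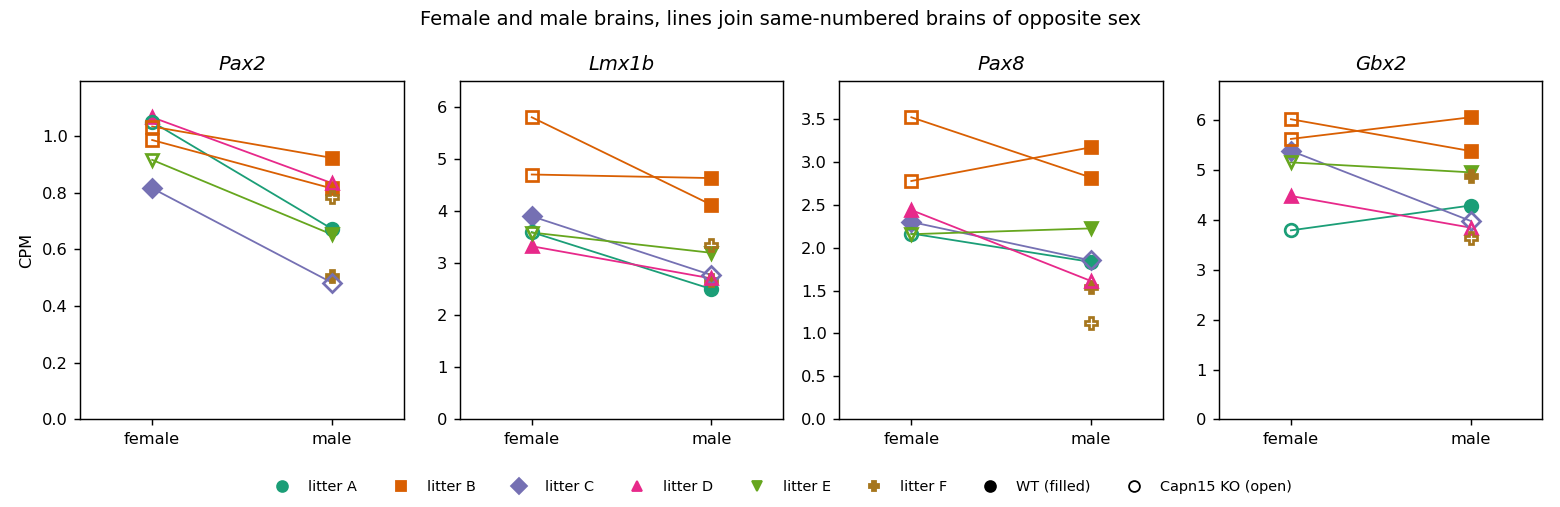
CPM (y axis from 0) of Pax2, Lmx1b, Pax8 and Gbx2 in 6 female and 8 male brains, filled for WT and open for Capn15 KO, with a marker for each litter and lines joining same-numbered brains of opposite sex. The line falls from female to male in 6 of 6 pairs for Pax2 and Lmx1b and in 4 of 6 for Pax8 and Gbx2.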

How the data were processed

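The study made ribosome-depleted, stranded RNA-seq libraries from frozen P2 brains. Its methods and the labels differ on the counting program (HTSeq-count or featureCounts), after Trimmomatic and STAR on GRCm38. The deposited values are raw read counts per gene, filtered by the authors under a rule not given in the sources used here. Gene identifiers, with 17909 of 17927 found in GENCODE M21 (GRCm38), gave exon lengths and overlaps. Litter and sex were read from the column names, and no value column was left unused.

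Counts were scaled by TMM and tested in edgeR 4.0.16 (R 4.3.3) with the quasi-likelihood test on litter, sex and genotype, adjusted by Benjamini-Hochberg over all 17927 genes. CPM are TMM-scaled, and log2 CPM carry a prior count of 2. Exact permutation, sign-flip and correlation tests are two-sided and used numpy 2.4.6. Alternatives were the likelihood ratio test, DESeq2 1.42.0, limma-voom 3.58.1, other scalings, a filter, other terms and left-out libraries. Counts simulated for the genotype comparison over 17927 genes gave back 94 of 100 genes changed by 0.5 and 100 of 100 changed by 1 on the log2 scale, with 17 false calls. Those counts held no litter or sex effect. Their changed genes all had a mean above 1 CPM, whereas Pax2 was at 0.82 CPM. Recovery in the real data may be lower, and Capn15 at -0.81 was not called there. Counting error alone gave a coefficient of variation of 2.66% (Pax6) to 16.6% (Pax2) at these depths. Apart from the 10 genes, named genes were those with an adjusted p under 0.05 in each list or its up to 4 others of highest mean CPM, the 3 most like each factor, and Capn15. Otx2, Cnpy1 and Spry4 were named after their values were seen. The members and lists were chosen with earlier results of these data known. Same-numbered WT and KO brains share a litter by the column names, and the correlations of their deviations over 15227 genes ran from -0.47 to 0.44 over the 7 pairs. Nothing ties a library to more than 1 brain, and p-values measure the spread between these brains. The labels place all 14 libraries in 1 batch. The paper's methods, however, put 4 samples on each sequencing lane, and the titles and column names do not give the lane of a library. Results for some listed genes are not reported here.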

Additional observations from a re-analysis of the deposited data

Results flagged for a closer look

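Of 22 groups of 7 libraries examined, the 10 factors and Capn15 in each genotype, 5 had a lowest or highest library far from the others, where chance gives about 1.1 (1 in 20). Pax2 in KO 4 was at -0.93 log2 CPM, with the next KO library at -0.27. Pax3 in KO 5 was at 1.91 log2 CPM, with the next at 2.30, and Pax6 in the same library was at 4.65, with the next at 4.91. Capn15 was at 4.23 log2 CPM in the library labelled WT 7, below the next WT library at 4.64, and at 4.34 in the library labelled KO 7, above the next KO library at 3.87. No cause of these values was tested.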

How the results depend on the processing

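No alternative run called any of the 10 factors for genotype or sex. The count of all genes called for genotype, 1 in the fit reported, was 34 by the likelihood ratio test, 22 by DESeq2, 0 without TMM, 7 without litter F, 2 without WT 7, KO 4 and KO 7, 38 by the likelihood ratio test without KO 7, 0 without litter B, and 0 to 7 with each library left out in turn. Under a replicate block with sex, which pairs same-numbered brains and drops the litter term, it was 0, and Gbx2 then had an adjusted p of 0.956. The block called no factor. The count for sex, 12, was 36 by the likelihood ratio test and 42 by that test without KO 7. Leaving out litter B took the litter test from 5301 to 196 genes and from 6 to 0 factors, with 10 brains in place of 14 and so less power. Called pairs of factors, 22, were 14 without litter F, 0 without litter B and 10 to 23 with each library left out, the lowest without KO 3. In the residuals of genotype, litter and sex 11 pairs passed, 8 positive and 3 negative. The negative ones were Pax2 with En1 at -0.81, with Pax7 at -0.76 and with En2 at -0.73. Permuting residuals treats them as independent, though in a litter of 2 brains they mirror each other, so those p-values are too small. Calls in the residuals are therefore not relied on. Called relations with regional lists, 26, were 0 without litter B. The settings without litter B, without WT 7, KO 4 and KO 7, and the likelihood ratio test without KO 7 were chosen after the data were seen.

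Fitted genotype differences (log2) that changed sign were all small. Without litter F, Pax2 was -0.068, Pax5 0.014, En1 0.055, En2 0.025 and Lmx1b -0.052. With each library left out in turn, Pax2 ran from -0.071 to 0.14, Pax3 from -0.15 to 0.058, Pax5 from -0.12 to 0.015, Pax6 from -0.081 to 0.046, En1 from -0.094 to 0.055, En2 from -0.097 to 0.033 and Lmx1b from -0.056 to 0.072. By the likelihood ratio test without KO 7, Pax2 was -0.063, Pax5 0.017, En1 0.055, En2 0.025 and Lmx1b -0.053. With genotype alone, Pax5 was 0.0033 and En1 0.037. Lmx1b was -0.0059 in limma-voom, -0.0043 with genotype and sex, and -0.0039 without WT 7, KO 4 and KO 7, where En1 was 0.089. Pax3 was 0.020 without litter B. In the residuals of genotype, litter and sex, r turned to -0.046 for Pax6 and Gbx2, -0.23 for Pax7 and Lmx1b, -0.22 for Gbx2 and Lmx1b, -0.23 for Pax7 and the forebrain list, -0.42 for Pax8 and the dorsal hindbrain and cord list, -0.29 for En1 and the forebrain list, -0.33 for Lmx1b and the granule list and -0.034 for Lmx1b and the tectum list. Without litter B, Pax7 and Lmx1b gave -0.016. The cause of these changes was not tested.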

Other observations

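Set against marker lists of other cells and the library total (50 relations, lists chosen after the data were seen), 27 had an adjusted permutation p under 0.05 and 23 of those were negative. Pax7 gave r = -0.92 with the oligodendrocyte lineage list (rho -0.91) and -0.92 with the neuron list (rho -0.89), and Pax8 gave -0.85 with the oligodendrocyte lineage list (rho -0.83). Without the 2 farthest brains these were -0.91, -0.89 and -0.81, and in the residuals of litter and sex -0.15, -0.38 and -0.62. Over the 10 brains outside litter B, 4 of the 50 were called, all negative. Over all 14 brains no relation with the library total was called, nor any of Pax2 or Pax3 with these lists, and Pax6 (r = 0.72), Pax7 (0.66), Gbx2 (0.63) and Lmx1b (0.64) had a called positive relation with the red blood cell list. In the residuals those 4 values were -0.55, -0.74, 0.19 and 0.46. There 7 of the 50 passed, a count under the limit on residuals given above. Among them were Lmx1b with the library total at -0.86 and Pax2 with the red blood cell list at 0.69. The cause of these changes was not tested.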
